A study of Mus musculus with 2 samples.

Results

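The imprinted growth regulators Igf2, H19, Dlk1, Meg3, Peg3, Cdkn1c, Plagl1, Grb10, Mest and Ndn were followed in the brain of mouse embryos that lack functional Plzf. These 10 genes were taken by name from the 37071 gene names that had a value on both arrays, with all of their 26 probes out of 56601. RNA of the forebrain and midbrain at E10.5 was compared on 2 arrays. Wild type embryos (strain label C57BL/6) were labeled with Cy3 and Plzf lu/lu embryos (strain label luxoid) with Cy5 on both of them. Luxoid is a spontaneous single-base change near the start of the coding sequence of Plzf (Zbtb16), which truncates the protein in all cells. Each array therefore held 1 sample of each genotype. The study describes the arrays as independent groups, and the number of embryos and litters behind a sample is not given in the sources used here. The dyes were never exchanged, so dye and genotype cannot be told apart for any probe, and both arrays lay on the same slide.

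Imprinted genes are expressed from only one parental copy, and many of them set the size of the embryo and placenta. Paternally expressed members include Igf2, a secreted growth factor, Dlk1, a transmembrane protein related to the Notch ligands, Mest, an enzyme-like protein of the alpha/beta hydrolase fold, Ndn, a protein of the MAGE family that is abundant in neurons, and the zinc finger proteins Peg3 and Plagl1. Maternally expressed members include the long noncoding RNAs H19 and Meg3 and the cyclin-dependent kinase inhibitor Cdkn1c, whereas Grb10, an adaptor of the insulin and IGF receptors, is maternal in most tissues and paternal in neurons. H19 shares its enhancers and its imprinting control region with Igf2, and Meg3 lies in the same imprinted domain as Dlk1.

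The results turn on these neighboring pairs. Printed below are some of the 60-base probes of these domains, without those of Igf2 and the brightest of Dlk1. They were printed from the array annotation in the sense of the transcript, and their positions are in build mm9. Those of H19 lie at chr7:149761492-149761551 (minus strand, the brighter probe) and chr7:149762173-149762232 (minus strand). Those of the other domain lie at chr12:110698428-110698487 (Dlk1), chr12:110783470-110783529 (Meg3, the brighter probe), chr12:110809678-110809737 (Meg3) and chr12:110899840-110899899 (Rian, a long noncoding RNA further along that domain), all on the plus strand.
H19 A_55_P2903297: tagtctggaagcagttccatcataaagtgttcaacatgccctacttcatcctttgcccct
H19 A_30_P01026972: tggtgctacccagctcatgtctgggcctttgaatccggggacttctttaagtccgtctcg
Dlk1 A_52_P177324: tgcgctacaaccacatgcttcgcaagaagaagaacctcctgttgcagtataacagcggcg
Meg3 A_55_P2736854: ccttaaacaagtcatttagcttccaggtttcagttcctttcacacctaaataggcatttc
Meg3 A_51_P455997: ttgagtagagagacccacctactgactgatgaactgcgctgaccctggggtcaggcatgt
Rian A_55_P2723831: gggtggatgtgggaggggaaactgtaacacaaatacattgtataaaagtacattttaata
No run of 20 bases in any of the 26 member probes was present in a probe of another gene name.

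The mutated gene was checked first. Its probe lies far downstream of the mutation and thus measures the transcript and not the truncation. The signal of Zbtb16 was 433 in wild type and 172 in Plzf lu/lu on array 1, and 546 and 211 on array 2. These are log2 ratios of -1.33 and -1.37, and both Plzf lu/lu signals lay below both wild type signals, as in 26.3% of all genes tested. A signal had to be above 200 with a signal-to-noise ratio of at least 5 in all 4 channels for a gene to be tested, which left 10600 genes. Zbtb16 was not among them, since its Plzf lu/lu signal on array 1 was below 200. Between 27.7% and 27.8% of gene spots were above that signal in each channel, and 0 gene spots were saturated. Array 1 was poorer in the wild type channel, where 36936 gene spots were well above background against 43546 to 44318 in the other channels.

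All 10 genes passed the filter through their brightest probe, as did 16 of their 26 probes, and 24 probes were well above background in all channels. The study set a threshold of 1.3-fold, and 0 of the 10 genes were beyond it on both arrays with the same direction. Of all genes tested, 2.58% were higher and 0.736% were lower by this rule. On array 1 alone, 2 members were higher (Dlk1 and Meg3, beside 8.25% of all genes) and 0 lower (5.58%), and on array 2 alone, 0 were higher (4.5%) and 1 lower (Meg3, 1.96%). With Benjamini-Hochberg adjustment over the whole table, limma called 0 members, with adjusted p from 0.114 to 0.956, and 3 genes in all (0.0283% higher, 0% lower). At an unadjusted p under 0.05, limma gave 3 members (2 higher, 1 lower), where 15.7% of all genes were higher and 12% lower. The median log2 ratio of the members was 0.14 on array 1 and -0.08 on array 2, beside 0.02 and -0.0047 over all genes. Both arrays had the same sign for 5 members, of which 3 were higher (Dlk1, Ndn and Cdkn1c) and 2 lower (Igf2 and H19), and the arrays had opposite signs for the other 5. Of all genes tested, 37.3% were higher and 35.4% lower on both arrays.

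**Figure D1:**
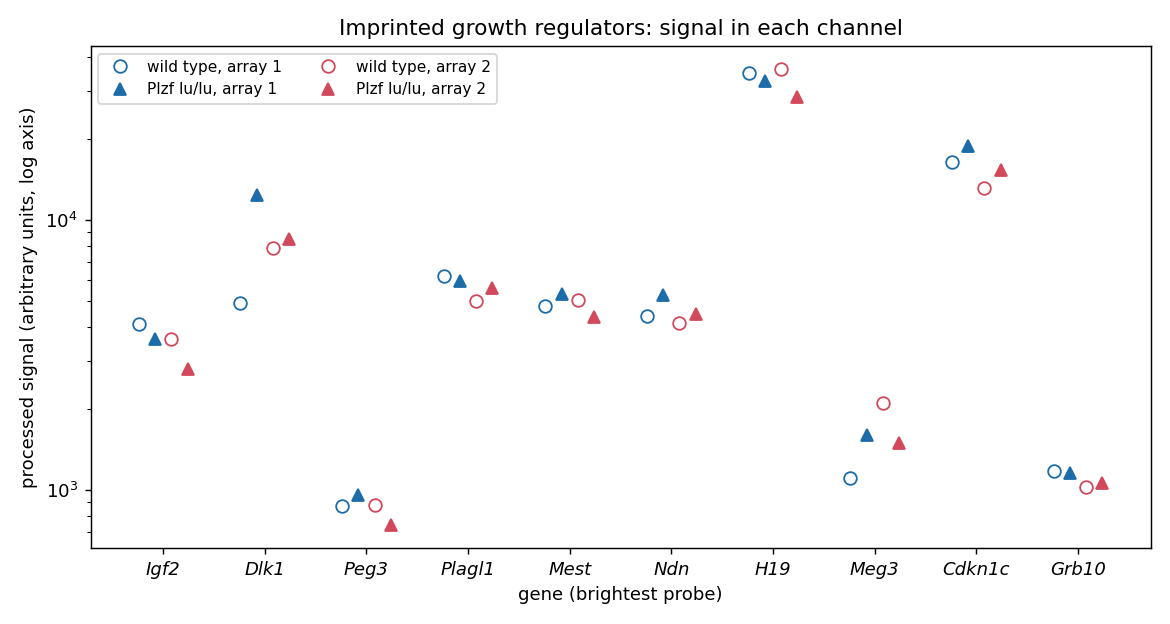
Processed signal (arbitrary units, log axis) of the brightest probe of each gene in the 4 channels, with open circles for wild type, triangles for Plzf lu/lu, blue for array 1 and red for array 2. The wild type signal of Dlk1 and of Meg3 on array 1 (4919 and 1111) lies below the other 3 signals of the same gene; levels of different probes cannot be compared.

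Igf2 and H19 had ratios below 1 at every probe. The brighter probe of Igf2 (A_51_P516833, chr7:149837115-149837174) gave 4118 in wild type and 3619 in Plzf lu/lu on array 1, and 3617 and 2811 on array 2. Both Plzf lu/lu signals were below the wild type signal of the same array, although the genotypes overlapped across the arrays, whose signals were not normalized to each other. The log2 ratios were -0.19 and -0.36, with a mean of -0.27 ± 0.13 (SD, n = 2). The limma SE was 0.08 and the adjusted p 0.114, the lowest among the members. The second Igf2 probe (A_55_P2118173, chr7:149839661-149839720), nearer to the 5′ end of the same transcript, was dimmer. It gave 403 and 306 on array 1 and 279 and 244 on array 2, or log2 ratios of -0.40 and -0.19.

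H19 was measured by the pair of probes printed above. The brighter one gave 35144 in wild type and 32827 in Plzf lu/lu on array 1, and 36329 and 28628 on array 2. Both Plzf lu/lu signals of H19 were thus below both wild type signals, which held for 26.3% of all genes tested. Its log2 ratios were -0.10 and -0.34 (mean -0.22 ± 0.17, SD, n = 2, limma adjusted p = 0.185). At the other H19 probe the signals were 3613 and 2939 on array 1 and 3359 and 2563 on array 2, and the log2 ratios -0.30 and -0.39. All 8 values of the 4 probes of these neighbors were below 0, but they share 2 arrays, a dye orientation and a chromosomal region and are not independent. The direction of H19 depended on the normalization, since its mean log2 ratio was 0.08 after normexp background correction with centring on the genes that passed the filter, whereas Igf2 was at -0.25 in that setting.

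**Figure D2:**
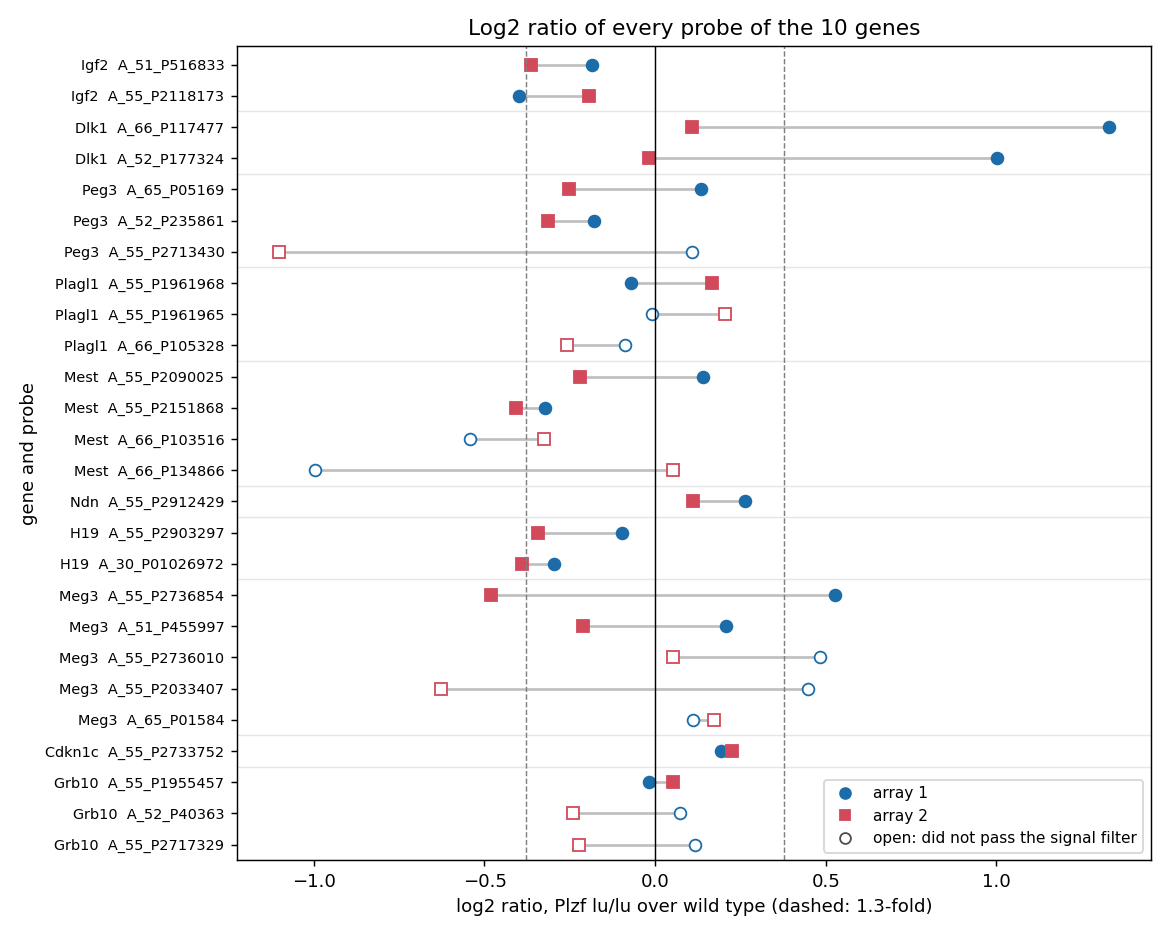
Log2 ratio of Plzf lu/lu over wild type (horizontal axis) for each of the 26 probes, with array 1 in blue, array 2 in red, open symbols for probes that did not pass the signal filter and dashed lines at 1.3-fold. Both probes of Igf2 and both of H19 lie left of 0 on both arrays, and both probes of Dlk1 lie far apart between the arrays; the brighter H19 probe and the brightest Mest probe moved to the right of 0 in their mean (0.08 and 0.03) after normexp with centring on the genes that passed.

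Dlk1 was higher in Plzf lu/lu on array 1 and near equal on array 2. Its brightest probe (A_66_P117477) gave 4919 in wild type and 12364 in Plzf lu/lu on array 1, which is a ratio of 2.51. On array 2 it gave 7908 and 8529, a ratio of 1.08. Both Plzf lu/lu signals were above both wild type signals, as in 30.5% of all genes. The log2 ratio of 1.33 on array 1 was reached or exceeded by 3 of the 10600 genes, Dlk1 included, while 2852 genes reached the value of 0.11 on array 2. The mean log2 ratio was 0.72 ± 0.86 (SD, n = 2) with a limma SE of 0.27 and an adjusted p of 0.159. The second Dlk1 probe, printed above, gave the same picture, with 1150 and 2305 on array 1 and 1617 and 1598 on array 2. Its log2 ratios were 1.00 and -0.02.

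Meg3, the maternal noncoding RNA of this domain, had ratios on opposite sides of 1. Its brighter probe gave 1111 in wild type and 1601 in Plzf lu/lu on array 1, and 2091 and 1497 on array 2. The log2 ratios were 0.53 and -0.48 (mean 0.02 ± 0.71, SD, n = 2, limma adjusted p = 0.956). Meg3 was the 1 member beyond 1.3-fold in opposite directions on the arrays, as were 0.198% of all genes. The second probe of Meg3 that passed gave 1065 and 1230 on array 1 and 1418 and 1224 on array 2, or log2 ratios of 0.21 and -0.21. The dimmer Meg3 probes did not pass and had log2 ratios of 0.48 and 0.05 (A_55_P2736010), 0.45 and -0.63 (A_55_P2033407), and 0.11 and 0.17 (A_65_P01584). In 4 of the 5 Meg3 probes the ratio was higher on array 1 than on array 2.

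The difference between the arrays lay mostly in the wild type samples for Meg3 and in both genotypes for Dlk1. After each channel was scaled to its 75th percentile, the wild type signal of Meg3 was 0.92 higher on the log2 scale on array 2 than on array 1, and its Plzf lu/lu signal differed by -0.08. For Dlk1 the wild type signal was 0.69 higher and the Plzf lu/lu signal 0.52 lower, the latter a difference of -0.52. Over all genes tested, the middle 90% of these differences lay between -0.29 and 0.27 in wild type and between -0.23 and 0.22 in Plzf lu/lu. The log2 ratios of Dlk1 differed by 1.22 between the arrays, a distance reached by 19 of the 10600 genes, and those of Meg3 by 1.01, reached by 54 genes. The median distance over all genes was 0.12.

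**Figure D3:**
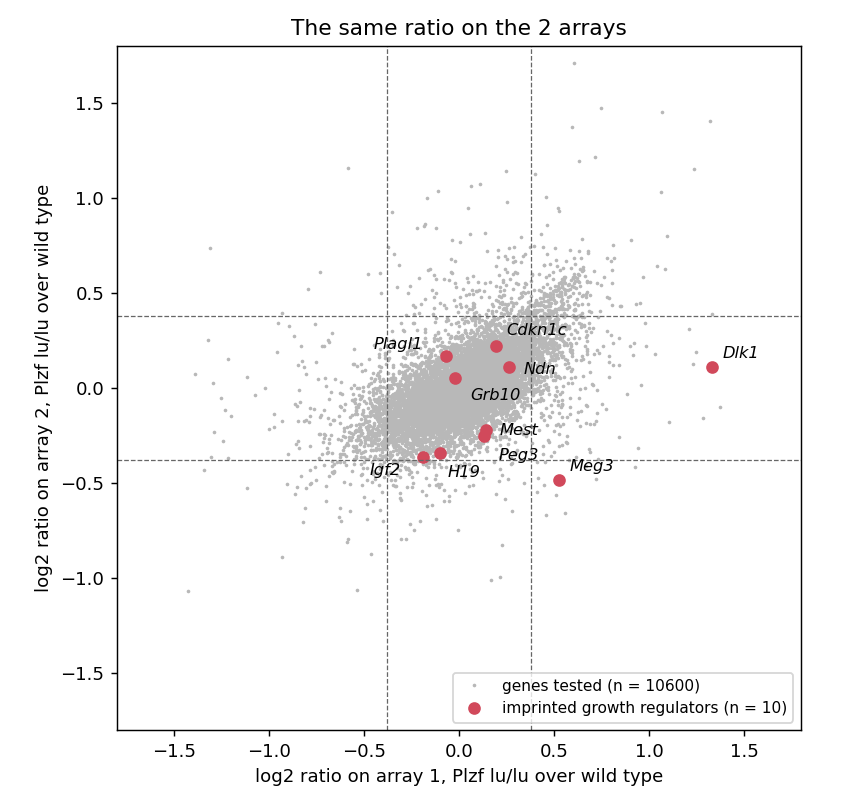
Log2 ratio of Plzf lu/lu over wild type on array 1 (horizontal) and array 2 (vertical) for the 10600 genes tested (grey) and the 10 members (red), with dashed lines at 1.3-fold; 4 genes lie outside the axes. Dlk1 (1.33 and 0.11) and Meg3 (0.53 and -0.48) lie away from the diagonal, and no member lies beyond 1.3-fold on both arrays with the same sign.

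The domain of Dlk1 and Meg3, with their own probes included, was examined in the same way, in a window chosen with the values of Dlk1 known. From the first Dlk1 probe to the last probe of Dio3, a deiodinase gene at the far end of the domain, the array carried 48 probes, of which 33 were well above background in all channels and 6 passed the filter. The ratio was higher on array 1 than on array 2 in 24 of the 33, beside 49.2% of all probes well above background, and their median log2 ratio was 0.14 on array 1 and -0.12 on array 2. It was also higher on array 1 in all 6 that passed (2 each of Dlk1, Meg3 and Mirg), beside 51.0% of all such probes. Both counts include the probes of Dlk1 and Meg3, whose values led to the window, and of the 6 only the 2 of Mirg are neighbors. The counts are therefore no separate evidence on the domain. Mirg, a noncoding RNA that hosts microRNAs, had log2 ratios of 0.23 and -0.22 at one probe and 0.11 and -0.22 at the other. Rian, which hosts small nucleolar RNAs and was singled out after its values were seen, gave 193 in wild type and 667 in Plzf lu/lu on array 1, and 715 and 707 on array 2, at the probe printed above. Its log2 ratios were 1.79 and -0.02, and it did not pass the filter because of the low wild type signal on array 1. The other Rian probe (A_55_P2741381) was dimmer, at 30.5 and 36.6 on array 1 and 40.1 and 36.0 on array 2, with log2 ratios of 0.26 and -0.15, a smaller difference between the arrays with the same sign. Rtl1, a paternally expressed gene of retrotransposon origin, was not well above background in any channel at its brightest probe. Many probes of the domain lie in overlapping or shared transcripts, so these counts are a description.

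**Figure D4:**
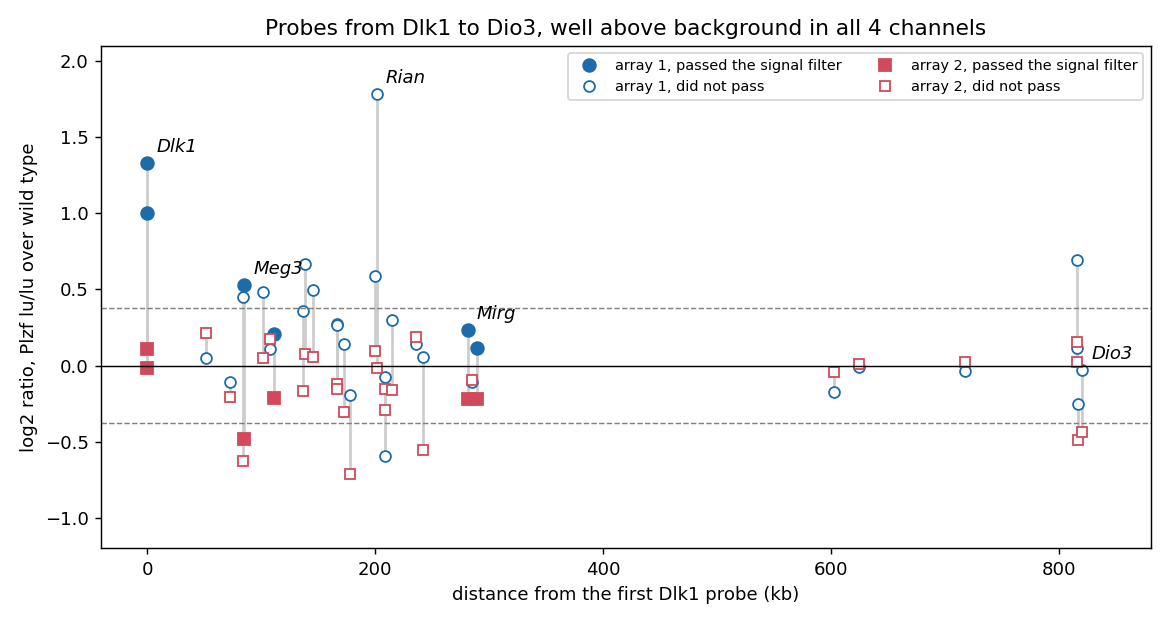
Log2 ratio of Plzf lu/lu over wild type (vertical axis) of the 33 probes from Dlk1 to Dio3 that were well above background in all channels, by distance from the first Dlk1 probe in kb. Grey lines join the arrays, filled symbols passed the signal filter, and array 1 (blue circles) lies above array 2 (red squares) in 24 probes, most widely at Rian (1.79 and -0.02) and Dlk1 (1.33 and 0.11). The 33 probes include those of Dlk1 and Meg3 themselves.

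Other cell types in the dissected tissue also differed between the arrays. The 14 surface ectoderm markers were all well above background, and their summed signal was 10763 in wild type and 15804 in Plzf lu/lu on array 1, and 14577 and 12168 on array 2. Like Dlk1 and Meg3, this sum was lowest in the wild type sample of array 1, and the median log2 ratio of the 10 markers that passed was 0.50 on array 1 and -0.12 on array 2. The 14 erythroid markers, also all well above background, summed to 594000.1 and 315737 on array 1 and to 240700.1 and 295853 on array 2, with a median log2 ratio of -0.95 and 0.12 over the 9 that passed. Mesenchyme is a tissue in which Igf2, H19 and Dlk1 are known to be strongly expressed, and its markers were mixed in direction. The 19 markers, all well above background, summed to 24816 in wild type and 26419 in Plzf lu/lu on array 1 and to 21025 and 20676 on array 2. Of the 15 that passed, 4 were higher and 5 lower on both arrays, beside 37.3% and 35.4% of all genes tested. At an unadjusted p under 0.05, where 15.7% of all genes were higher and 12% lower, limma gave 2 higher and 4 lower. The 4 lower ones were Col3a1 (log2 ratios -0.17 and -0.47), Foxc1 (-0.21 and -0.35), Pdgfra (-0.15 and -0.33) and Col1a1 (-0.19 and -0.23). These genes were named after their values were seen. The 2 higher ones were Lum and Six2, and Six2, which the study had selected on these arrays, was the 1 mesenchyme gene beyond 1.3-fold on both (higher, 0.46 and 0.58). The 18 endothelial markers, all well above background, summed to 7801 and 6521 on array 1 and to 8927 and 5971 on array 2. The 6 that passed were all lower on both arrays, beside 35.4% of all genes tested, with median log2 ratios of -0.39 and -0.71. At an unadjusted p under 0.05 limma gave 0 of them higher and 5 lower. Beyond 1.3-fold on both arrays 3 were lower (Icam2, Emcn and Plvap, all selected by the study on these arrays), beside 0.736% of all genes tested. The part of these cell types in the values of the imprinted genes was not tested, and in bulk RNA fewer cells of a type cannot be told apart from less RNA per cell.

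Cdkn1c, which encodes the cell cycle inhibitor p57Kip2, had the smallest spread of the members. Its only probe (A_55_P2733752, chr7:150644297-150644356) gave 16460 in wild type and 18813 in Plzf lu/lu on array 1, and 13097 and 15294 on array 2. Plzf lu/lu was higher on each array, but the genotypes overlapped across arrays because the wild type signal of array 1 was above the Plzf lu/lu signal of array 2. The log2 ratios were 0.19 and 0.22 (mean 0.21 ± 0.02, SD, n = 2), which is a ratio of 1.16, with a limma adjusted p of 0.150. After normexp with centring on the genes that passed, the mean was 0.37 and the adjusted p 0.0300, and Cdkn1c was the 1 member called by limma in that setting. Kcnq1ot1 is the paternal noncoding RNA that is known to silence Cdkn1c on the same chromosome. Its brightest probe had log2 ratios of -0.32 and -0.22 and a limma adjusted p of 0.106. Kcnq1ot1 was singled out after its values were seen, and its relation to Cdkn1c was not tested. Phlda2, a further gene of that domain, was not well above background in 3 of the 4 channels.

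Mest and Peg3 differed between their own probes. The brightest Mest probe (A_55_P2090025) gave 4820 in wild type and 5312 in Plzf lu/lu on array 1, and 5073 and 4357 on array 2. Its log2 ratios of 0.14 and -0.22 had opposite signs, the mean of -0.04 became 0.03 after normexp with centring on the genes that passed, and the limma adjusted p was 0.827. The second Mest probe that passed (A_55_P2151868), nearer to the 5′ end of the same transcript, gave 761 and 608 on array 1 and 741 and 558 on array 2. Both Plzf lu/lu signals were below both wild type signals there, as in 26.3% of all genes tested at their brightest probe. The log2 ratios of this second Mest probe were -0.32 and -0.41. In the limma fit of each probe on its own this probe had an adjusted p of 0.0637. Of the Mest probes that did not pass, A_66_P103516 was well above background in all channels and also lower on both arrays, with signals of 49.5 and 34.0 on array 1 and 50.3 and 40.1 on array 2 and log2 ratios of -0.54 and -0.33. A_66_P134866 was not well above background in any channel (log2 ratios of -0.997 and 0.052).

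Peg3 gave 874 in wild type and 959 in Plzf lu/lu on array 1, and 880 and 739 on array 2, at its brightest probe (A_65_P05169). The log2 ratios were 0.13 and -0.25 (limma adjusted p = 0.746). At A_52_P235861, which lies within the same gene and also passed, the signals were 333 and 294 on array 1 and 284 and 228 on array 2. Its log2 ratios of -0.18 and -0.31 were both below 0. The third Peg3 probe was near background, so its log2 ratios of 0.11 and -1.10 carry little weight.

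Ndn, or necdin, had 1 probe (A_55_P2912429), with 4409 in wild type and 5289 in Plzf lu/lu on array 1, and 4141 and 4474 on array 2. Both Plzf lu/lu signals were above both wild type signals, as in 30.5% of all genes tested. The log2 ratios were 0.26 and 0.11 (mean 0.19 ± 0.11, SD, n = 2, limma adjusted p = 0.201). Neuronal markers differed in the same direction, with a median log2 ratio of 0.14 on array 1 and 0.72 on array 2 over the 9 of 12 that passed, and their part in the ratio of Ndn was not tested. The 12 neuronal markers, all well above background, summed to 8866 in wild type and 9478 in Plzf lu/lu on array 1 and to 8009 and 12805 on array 2.

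Plagl1, or Zac1, gave 6221 in wild type and 5929 in Plzf lu/lu on array 1, and 5001 and 5615 on array 2. The log2 ratios of -0.07 and 0.17 had opposite signs (limma adjusted p = 0.744). Of the members, Grb10 had the ratios nearest to 1 on both arrays, with 1174 and 1159 on array 1 and 1027 and 1065 on array 2, log2 ratios of -0.02 and 0.05, and a limma adjusted p of 0.899. The other probes of both genes did not pass and had log2 ratios between -0.26 and 0.21.

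Igf2 acts through the receptors, binding proteins and adaptors of the IGF pathway, and some of these were beyond the threshold. Of 22 pathway genes listed, 15 passed, with a median log2 ratio of 0.10 on array 1 and 0.16 on array 2. Beside 2.58% higher and 0.736% lower of all genes tested, 4 of the 15 were higher beyond 1.3-fold on both arrays and 0 were lower. The 4 were Irs4 and Irs1, adaptors of the insulin and IGF receptors, Igfbp5, an IGF binding protein, and Htra1, a protease that cleaves IGF binding proteins. Irs4 gave 221 in wild type and 414 in Plzf lu/lu on array 1 and 263 and 452 on array 2 (log2 ratios 0.90 and 0.78). Irs1 had log2 ratios of 0.40 and 0.41. Igfbp5 gave 1114 and 1711 on array 1 and 1279 and 1839 on array 2 (log2 ratios 0.62 and 0.52). Htra1 had log2 ratios of 0.97 and 0.59, and Irs4 and Htra1 had been selected by the study on these arrays. The limma fit called 0 genes of this list at an adjusted p under 0.05, with 0.0510 for Irs4, Htra1 and Igfbp5. At an unadjusted p under 0.05, where 15.7% of all genes were higher and 12% lower, it gave 6 higher and 1 lower. The lower one was Igfbp4, a further IGF binding protein, with log2 ratios of -0.52 and -0.34 and an adjusted p of 0.0629. Markers of brain regions moved as well. Of the 8 forebrain markers, 6 passed, with median log2 ratios of 0.49 and 0.54. Beyond 1.3-fold on both arrays 3 were higher and 0 lower, and the higher ones included Otx2 (log2 ratios 0.38 and 0.39) and Six3 (0.62 and 0.47). Of the 8 midbrain markers, 4 passed, with median log2 ratios of -0.32 and -0.20. On both arrays 3 of the 4 were lower and 1 was higher, beside 35.4% and 37.3% of all genes tested. Beyond 1.3-fold on both, 1 was lower (En2, selected by the study on these arrays). The 8 midbrain markers summed to 3840 and 2456 on array 1 and to 4069 and 2713 on array 2. En1, a defining midbrain marker, was not well above background in any channel. The part of regional composition in the values of the pathway and of the imprinted genes was not tested.

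Igf2r, which binds Igf2 and leads it to lysosomes, had signals of 653 in wild type and 1038 in Plzf lu/lu on array 1, and 724 and 871 on array 2. The log2 ratios were 0.67 and 0.27 with a limma adjusted p of 0.0844, so that Igf2r was beyond 1.3-fold on array 1 only. Igf1r, the receptor through which Igf2 signals, had log2 ratios of -0.06 and -0.19, and the ligand Igf1 had 0.02 and 0.16. Insr, the insulin receptor, did not pass the filter and was at 9 to 22 signal units.

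The nearest relatives of the members were not called either. Of 18 relatives listed, 11 passed and 0 were beyond 1.3-fold on both arrays in either direction, with a median log2 ratio of 0.14 on array 1 and 0.07 on array 2. At an unadjusted p under 0.05, where 15.7% of all genes were higher and 12% lower, limma gave 3 of the relatives higher and 1 lower. These were Mageh1 (log2 ratios 0.45 and 0.36, adjusted p = 0.0609, the lowest of the list), Magee1 (0.50 and 0.21) and Cdkn1b on the higher side, and Ndnl2 (-0.36 and -0.27) on the lower side. Mageh1, Magee1 and Ndnl2 belong to the MAGE family as Ndn does and were named after their values were seen, as was Grb7, the relative of Grb10, whose arrays had opposite signs (0.84 and -0.26). Cdkn1b (p27Kip1), of the same inhibitor family as Cdkn1c, had log2 ratios of 0.26 and 0.23 and a limma adjusted p of 0.114. Plagl2 was at -0.01 and 0.06, and Dlk2 at 0.17 and 0.02. Cdkn1a, Plag1, Grb14 and Magel2, the neighbor of Ndn, did not pass the filter.

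Among 42 other imprinted genes, 23 passed and 0 were beyond 1.3-fold on both arrays in either direction. Their median log2 ratio was 0.07 on array 1 and -0.02 on array 2. Of the 23, 8 were higher and 6 lower on both arrays, beside 37.3% and 35.4% of all genes tested. At an adjusted p under 0.05 limma called 0 of the 23, and their lowest adjusted p was 0.0822. At an unadjusted p under 0.05 it gave 5 higher and 3 lower, beside 15.7% and 12% of all genes.

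**Figure D5:**
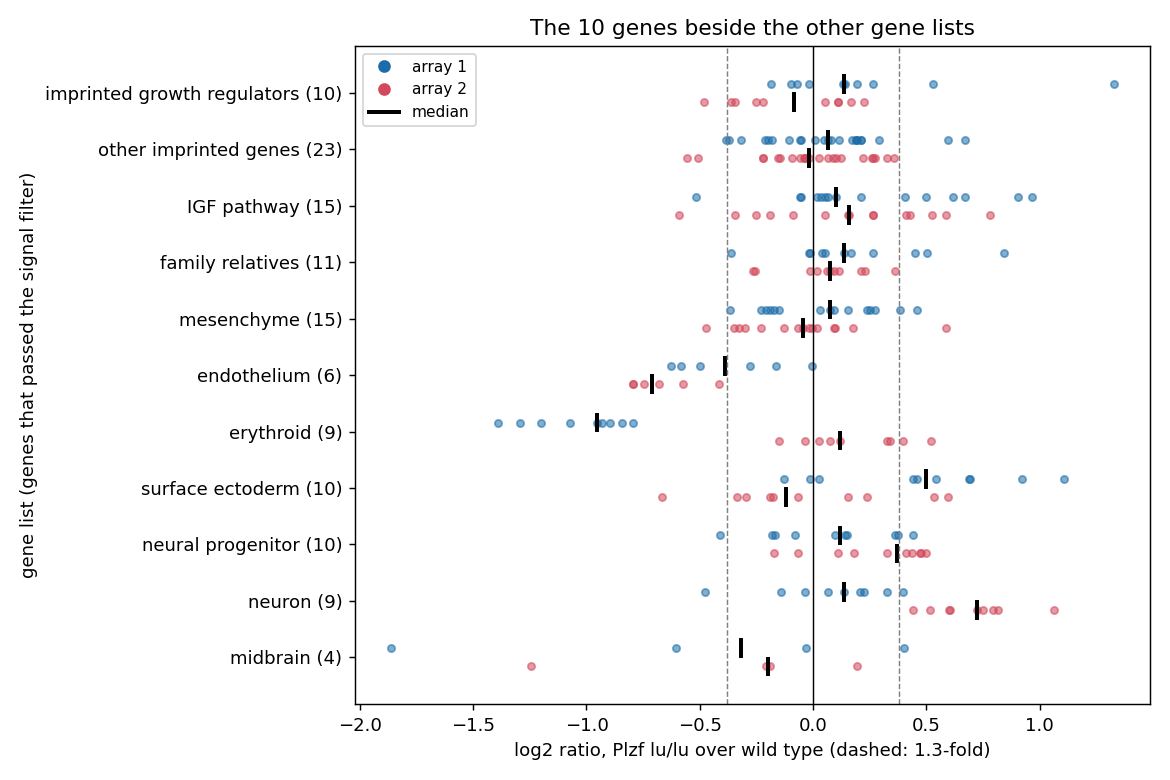
Log2 ratio of Plzf lu/lu over wild type (horizontal axis) of the genes that passed the signal filter, for the 10 imprinted growth regulators and other gene lists (vertical axis, number of genes in parentheses), with array 1 in blue, array 2 in red, black bars for medians and dashed lines at 1.3-fold. The forebrain list is not drawn. The medians of the imprinted growth regulators (0.14 and -0.08) lie inside the dashed lines, and those of the erythroid (-0.95 and 0.12) and surface ectoderm genes (0.50 and -0.12) differ between the arrays.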

How the data were processed

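The authors scanned both arrays (Agilent SurePrint G3) with Feature Extraction 10.7.3.1, which subtracted background and balanced the dyes of an array by LOWESS on rank-consistent spots. The deposited values used here are processed intensity, with a log10 ratio (Cy5 over Cy3), and a deposited value table holds that ratio as log2. Probe positions (mm9) are those of the deposited annotation, and feature flags, probe names and positions were used as given (other columns). Controls and flagged outliers were dropped, replicate spots were averaged per probe, and a gene was represented by its brightest probe. The members and gene lists were chosen with earlier results of these data known. All members were named with every probe. Of each other list, genes past 1.3-fold with the same sign on both arrays (at most 4 per list) were named, with the receptors and nearest relatives of members whatever their values. The 10600 log2 ratios were tested in R 4.3.3 by limma 3.58.1 (lmFit, eBayes, Benjamini-Hochberg), which has 1 residual degree of freedom per gene, and an exact sign-flip test on 2 arrays cannot go below p = 0.5. P-values measure only the spread between these arrays, and the number of arrays limits their precision. On simulated data with 200 of 10600 genes changed by 1 on the log2 scale, limma recovered a median of 98.8% of them over 10 simulations, with a median of 6.64% of calls false. The simulated spread did not depend on the size of the change, so this rate cannot be carried over to the real arrays. There limma called 0 genes lower, although mean log2 ratios reached -1.65. Recovery of changes smaller than 1, as most members had, was not simulated. The channels of an array were paired because they share a hybridization. Their differences between the arrays correlated across genes with r = 0.20, and genes are not independent replicates. Alternatives were normexp (offset 50) with loess or with either of 2 centrings, the values deposited as log2, other filters on dim spots, each probe on its own, the mean over probes, removal of the trend on GC content (lowess, span 0.67), eBayes with trend, the channels without pairing, 1.5-fold, averaging of the arrays, and leaving out either array. Python 3.11.15, numpy 2.4.6, pandas 2.3.3 and matplotlib 3.10.9 were also used. Some genes that the rule above names are not reported here.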

Additional observations from a re-analysis of the deposited data

How the results depend on the processing

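Dlk1, Ndn, Cdkn1c and Grb10 stayed above 0 in the mean of both arrays in every refit, and no member passed limma's threshold except under normexp with centring. For Grb10 this sign carries little weight, since its mean was 0.017 and fell as low as 0.00093, and array 1 alone gave -0.018. Normexp with median centring over all spots moved the median log2 ratio of the genes that passed from 0.0067 to 0.56, which gave Igf2 0.31, Peg3 0.40, Mest 0.59 and H19 0.63, called 10 members higher by limma and 6 by 1.3-fold, and over all genes 9646 higher and 6 lower by limma and 6731 and 4 by 1.3-fold. With centring on the genes that passed, Mest was at 0.029 and H19 at 0.076, limma called 1 member (Cdkn1c), and over all genes 969 higher and 545 lower by limma and 455 and 120 by 1.3-fold. Removal of the GC trend put Plagl1 at -0.016 and Meg3 at -0.023. By the mean of the arrays 1 member was higher (Dlk1), with 498 genes higher and 245 lower. Leaving out one array gave between 0 and 2 members higher, between 0 and 1 lower, and over all genes between 477 and 875 higher and between 208 and 592 lower; without array 2, Dlk1 and Meg3 were the higher ones, and without array 1, Meg3 was lower. At 1.5-fold, 41 genes were higher and 12 lower. By 1.3-fold, 586 genes were higher and 481 lower with spots well above background, and 1695 and 2173 with no filter. Limma called 0 genes higher with normexp and loess, the mean over probes, no filter, spots well above background, or the log2 table (unadjusted p under 0.05: 1875, 1472, 1477, 2067 and 1439 genes higher), 1 with the GC trend removed, 1 higher and 1 lower with 1 passing channel per array, 293 and 100 with the eBayes trend, and 178 and 55 with each probe on its own. Without the pairing of channels by array (no replicate block) it called 171 and 26, and 0 members. Beyond the number of genes and arrays a setting leaves, the cause was not tested. Of the 26 member probes, 10 did not pass the filter, although 24 were well above background in all channels.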

Other observations

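Some other imprinted loci hold a pair of neighboring transcripts that both passed the filter, and these were singled out after their values were seen. At the Igf2r locus, Igf2r had log2 ratios of 0.67 on array 1 and 0.27 on array 2, and Airn, the paternal noncoding RNA that is known to silence it, had -0.11 and -0.51 (limma adjusted p = 0.0844 and 0.155). Airn was dim, with signals of 221 in wild type and 205 in Plzf lu/lu on array 1 and 285 and 200 on array 2. At the Trappc9 locus, Trappc9 had log2 ratios of 0.29 and 0.36, the lowest adjusted p of the imprinted genes (0.0822), and the noncoding RNA Peg13 within it had -0.38 and 0.12. Mcts2 lies in an intron of H13 and had 0.19 and 0.32, whereas H13 had -0.05 and -0.09. Copg2, the neighbor of Mest, had 0.59 and 0.10. None of these passed 1.3-fold with the same sign on both arrays, and the differences between the neighbors were not tested.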
